A study of Homo sapiens with 25 samples.

Results

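The genes described here are the 31 human HOX genes of paralogue groups 4 to 13, taken by name from the 39 HOX genes and from the 20037 protein-coding genes of the annotation used. They comprise 8 genes of the HOXA cluster, 7 of HOXB, 9 of HOXC and 7 of HOXD, and the rule that picks them uses names only. They were followed by chromatin immunoprecipitation with sequencing of 3 histone marks, H3K27ac, H3K27me3 and H3K4me2, in H1, a human embryonic stem cell line. The groups are the stem cells themselves (hESC) and 3 kinds of cell derived from them. These are definitive endoderm (hDE), then the anterior part of the foregut (hAFE) and its pharyngeal part (hPFE). The labels give no genotype, agent or day that would separate the groups further, and all of them come from 1 line. Each stage has 2 libraries per mark, except hAFE for H3K27me3 and hAFE and hPFE for H3K4me2, which have 1 library each. The comparisons ask at which stage the genes bore a mark, and what share of each gene and cluster lay under it.

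HOX genes encode homeodomain transcription factors that stand in 4 clusters in the order in which they are used along the body axis. The low-numbered groups act in the hindbrain and pharyngeal region, the higher ones further down the trunk, and group 13 in the tail, limbs, hindgut and urogenital tract. In cells that do not use them, Polycomb complexes spread H3K27me3 over whole clusters, whereas active genes exchange it for H3K27ac, and H3K4me2 is found at open promoters and enhancers, active or not. Promoters that hold H3K4 methylation and H3K27me3 together are called bivalent.

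Polycomb targets are usually rich in CG dinucleotides, so the promoters of 4 members on which results below turn are shown first, with CG in capitals. They are the 250 bases before the annotated start from RefSeq, assembly GRCh38.p14, written 5' to 3' along the gene's own strand. HOXA4 is at chr7:27130758-27131007 on the minus strand, HOXA11 at chr7:27185233-27185482 on the minus strand, HOXA13 at chr7:27200092-27200341 on the minus strand and HOXD13 at chr2:176092471-176092720 on the plus strand. HOXA4 stands nearest to the boundary of the repressed block in hPFE, HOXA11 and HOXD13 are the members that had any H3K27ac, and HOXA13 holds the most CG of the member promoters.
HOXA4: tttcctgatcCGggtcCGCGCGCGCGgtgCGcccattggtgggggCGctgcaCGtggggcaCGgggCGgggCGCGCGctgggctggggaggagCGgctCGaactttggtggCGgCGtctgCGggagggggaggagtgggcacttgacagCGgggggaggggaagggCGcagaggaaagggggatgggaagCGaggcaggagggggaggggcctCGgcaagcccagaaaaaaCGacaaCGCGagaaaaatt
HOXA11: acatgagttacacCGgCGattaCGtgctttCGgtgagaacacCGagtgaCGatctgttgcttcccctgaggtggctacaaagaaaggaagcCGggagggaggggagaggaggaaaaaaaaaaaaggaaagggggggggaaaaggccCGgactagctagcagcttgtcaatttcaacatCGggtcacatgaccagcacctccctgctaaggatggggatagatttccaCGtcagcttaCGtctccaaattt
HOXA13: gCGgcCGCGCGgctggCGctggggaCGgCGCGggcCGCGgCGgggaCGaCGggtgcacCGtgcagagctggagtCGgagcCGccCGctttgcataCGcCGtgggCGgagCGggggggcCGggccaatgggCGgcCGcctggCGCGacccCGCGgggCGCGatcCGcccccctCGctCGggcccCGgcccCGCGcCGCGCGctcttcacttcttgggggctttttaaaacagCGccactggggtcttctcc
HOXD13: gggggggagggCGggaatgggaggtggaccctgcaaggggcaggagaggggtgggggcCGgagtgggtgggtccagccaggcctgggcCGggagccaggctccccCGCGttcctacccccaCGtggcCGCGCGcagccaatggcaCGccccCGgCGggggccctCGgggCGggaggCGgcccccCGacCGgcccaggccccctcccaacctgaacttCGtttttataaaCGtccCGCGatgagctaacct
These sequences hold 26, 11, 40 and 21 CG dinucleotides. Of the 31 members, 15 matched the promoter table with 16 promoters, whose CG count ranged from 4 at HOXD4 to 40 at HOXA13 with a median of 22. The median over 22199 promoters of the same length was 16. HOXA5, all members of HOXB, HOXC6, HOXC8, HOXC9, HOXC10, HOXC11, HOXC12, HOXC13 and HOXD9 did not match.

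The members' intervals also hold 7 microRNA hairpins, and 3 of these belong to the miR-196 family, known to target HOX transcripts. The mature sequences are from RefSeq, with the seed (bases 2 to 8) in capitals.
hsa-miR-196a-5p: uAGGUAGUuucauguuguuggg
hsa-miR-196b-5p: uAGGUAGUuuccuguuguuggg
hsa-miR-10a-5p: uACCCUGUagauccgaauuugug
hsa-miR-615-3p: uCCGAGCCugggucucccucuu
MIR196A1 lies in HOXB, MIR196A2 in HOXC and MIR196B in HOXA, and the 5p arms of all of them share the seed AGGUAGU. MIR10A lies in HOXB, MIR10B in HOXD, MIR615 in HOXC and MIR3185 near HOXB13.

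The deposited lists held 24831 to 111237 peaks for H3K27ac, 23352 to 76273 for H3K27me3 and 87338 to 116168 for H3K4me2, over 9.6 to 46.0, 15.7 to 31.8 and 34.6 to 51.0 Mb. Read counts were not used here, so depth is unknown and a missing peak does not show a missing mark. The stage labels were compared with H3K27ac at known markers. It stood at 4 of 5 stem cell markers in hESC, at 5 of 5 definitive endoderm markers in hDE, at 3 of 3 foregut markers in hAFE and at 3 of 6 pharyngeal markers in hPFE, where FOXE1, SHH and ISL1 had it and the defining markers PAX9, PAX1 and TBX1 did not. Of the stem cell markers, 2, 1 and 2 had H3K27ac in hDE, hAFE and hPFE, and no definitive endoderm marker had it outside hDE. Of the foregut markers, 1 had it in hESC, 1 in hDE and 3 of 3 in hPFE, so they do not separate hAFE from hPFE. Of the pharyngeal markers, ISL1 also had it in hAFE and none had it in hESC or hDE. None of 3 neural and none of 3 posterior endoderm markers was marked by it at its ends at any stage, and of 3 mesoderm markers TBX6 was in hESC, hDE and hPFE. The hESC libraries of H3K27ac and H3K27me3 were re-analysed from an earlier deposit, so for these marks batch and stage cannot be told apart in any contrast with hESC. Replicate 1 of H3K27me3 in hESC, hDE and hPFE has the word millipore in its file names, and the labels do not state its meaning.

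H3K27me3 covered every member at every stage. A gene counted as marked when every library of a stage had at least 1 bp of a peak within 1 kb of either end of the annotated gene, and by this rule 31 of 31 members were marked in hESC, hDE, hAFE and hPFE. The same rule marked 19.2%, 13.4%, 15.5% and 12.7% of all protein-coding genes. No member lost the mark between stages, and none could gain it, since all were marked at every stage. Among all genes 0.634% gained it and 4.27% lost it from hESC to hDE, 2.17% and 2.05% from hDE to hAFE, 1.5% and 2.49% from hAFE to hPFE, 1.62% and 2.19% from hDE to hPFE, and 1.13% and 6.22% from hESC to hPFE. HOXC4, HOXC5 and HOXC6 share a start, and many neighbours share 1 long peak, so the members are not independent units.

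Coverage within the genes was nearly complete as well. The share of bases of a gene and 1 kb on each side that lay under an H3K27me3 peak had a median over the members of 98.1% and 100.0% in the hESC libraries, 92.6% and 91.1% in hDE, 97.2% in hAFE and 94.5% and 94.2% in hPFE (replicates 1 and 2 where there are both). The median over all protein-coding genes was 0.0% in each library. Of the 217 pairs of a member and a library, 211 were at 80% or more, a level reached by 0.8% to 1.4% of all genes. The 6 exceptions were HOXD13 in both hDE libraries, HOXA13 in hDE replicate 2, and HOXA4, HOXA5 and HOXB4 in hPFE replicate 1.

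**Figure D1:**
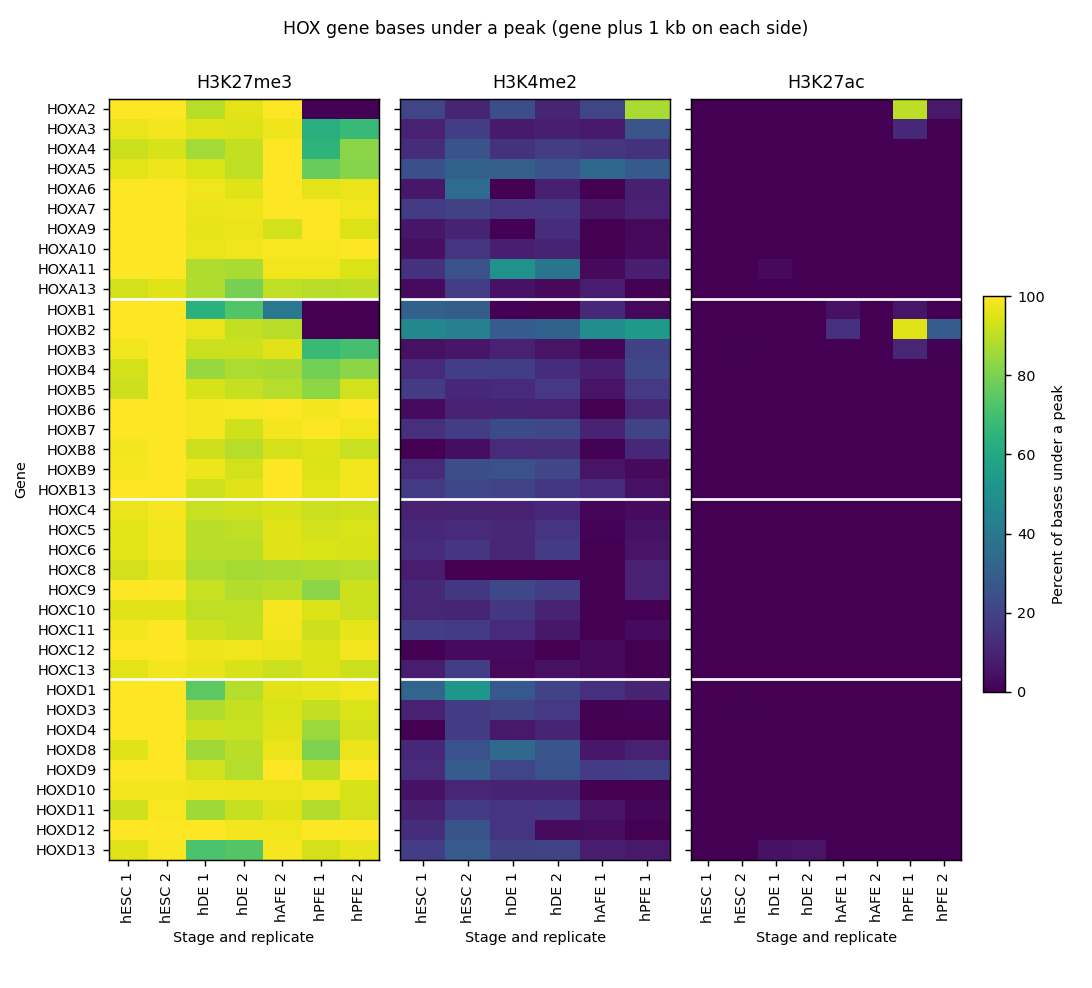
Percent of bases of each HOX gene, with 1 kb on each side, under a peak of H3K27me3, H3K4me2 or H3K27ac, by library (columns are stage and replicate, white lines separate the 4 clusters). All 31 members of groups 4 to 13 stay between 64.9% and 100% for H3K27me3, while HOXA2, HOXB1 and HOXB2 drop to 0% in both hPFE libraries.

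The clusters were covered as blocks. Each interval ran from the lowest to the highest end of a cluster's members, with 1 kb on each side. They are chr7:27127525-27201091 for HOXA, chr17:48574507-48729750 for HOXB, chr12:53937831-54057030 for HOXC and chr2:176086487-176154226 for HOXD, on hg38. In HOXA (73.6 kb) the share of bases under H3K27me3 was 98.2% and 98.8% in hESC, 94.7% and 93.8% in hDE, 97.2% in hAFE and 91.4% and 92.9% in hPFE. In HOXC (119.2 kb) it was 97.8% and 98.9%, 94.3% and 93.9%, 95.4%, and 93.8% and 94.9%. HOXD (67.7 kb) had 94.9% and 97.3%, 87.4% and 87.2%, 94.1%, and 89.4% and 93.6%, so that its lowest libraries were those of hDE. In HOXB (155.2 kb) the values were 58.2% and 63.0%, 62.0% and 61.5%, 58.7%, and 64.0% and 60.4%. This interval includes 96.4 kb between HOXB9 and HOXB13 with no member, in which 35.2% to 42.2% of bases were covered as means of a stage. From HOXB4 to HOXB9 alone, a division chosen after the values were seen, the share was 98.2% and 100.0%, 95.7% and 94.4%, 96.7%, and 93.6% and 96.0%. In HOXA, HOXC and HOXB4 to HOXB9 every library stayed above 91%, against 0.738% to 1.39% of the bases of all protein-coding genes.

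The peaks themselves were among the longest of their lists. Lengths here are of whole peaks that touch a member interval and may run beyond it. In hESC the longest such peak of HOXB ranked first by length among 27734 peaks (39.4 kb) and among 54696 peaks (80.8 kb), while the longest stretch of one peak inside the interval was 19.0 and 62.0 kb. The longest peak of HOXA ranked first in hAFE (23.1 kb) and in hPFE replicate 2 (19.3 kb), and that of HOXC in hDE replicate 2 (15.0 kb). The longest peak touching a member interval was 23.7 to 80.8 kb in the hESC lists and 7.74 to 15.0 kb in the hDE lists.

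**Figure D2:**
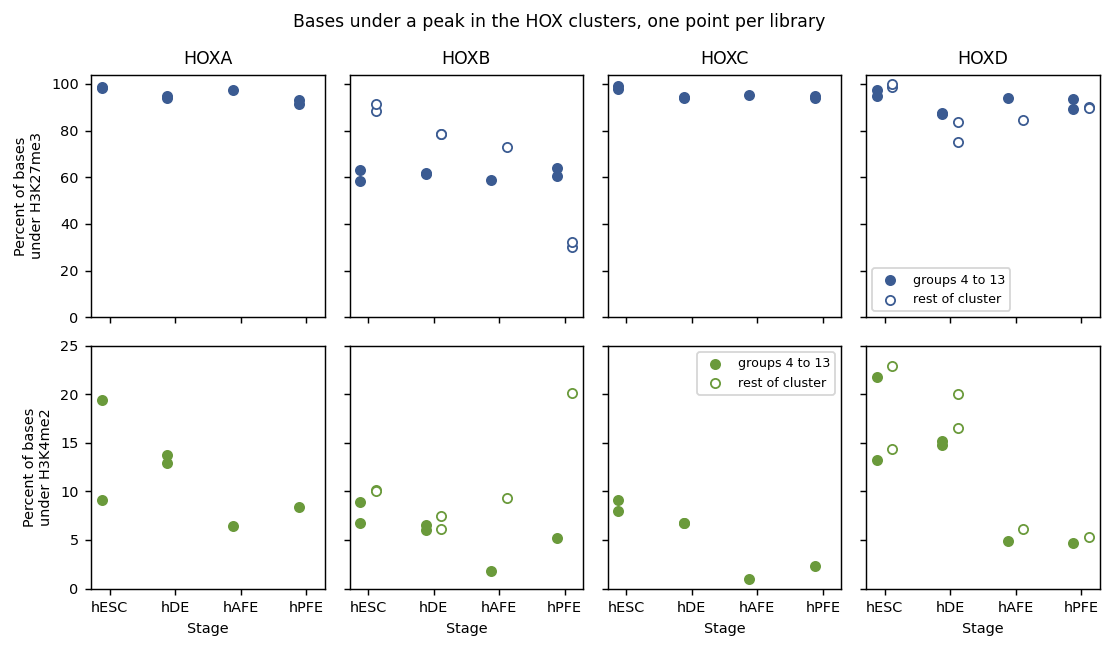
Percent of bases under H3K27me3 (top) and H3K4me2 (bottom) in each HOX cluster by stage, 1 point per library, for the interval of groups 4 to 13 (filled) and, for HOXB and HOXD, the rest of the cluster (open). For H3K27me3 the filled points of HOXA stay at 91.4% or more, while the open points of HOXB drop to 30.3% and 32.2% in hPFE.

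In hPFE the block had a boundary just in front of group 4. HOXA2, a regulator of the hindbrain and pharyngeal arches, had 100.0% of its bases under H3K27me3 in both hESC libraries, 89.4% and 95.8% in hDE, 100.0% in hAFE and 0.0% in both hPFE libraries. HOXA3, whose annotated body spans HOXA4, had 97.2% and 98.4%, 95.6% and 94.9%, 97.3%, and 62.5% and 67.7%. The part of HOXB outside the members' interval, with HOXB1, HOXB2 and most of HOXB3, had 88.4% and 91.4%, 78.7% and 78.6%, 73.1%, and 30.3% and 32.2%. In all of these the hPFE libraries lay below all others. The part of HOXD with HOXD1 and HOXD3 differed from these, with 98.7% and 99.8%, 75.3% and 83.7%, 84.5%, and 90.3% and 89.8%. HOXB1 and HOXB2 had 0.0% in both hPFE libraries, beside 31 of 31 members still marked there.

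The position of the boundary was read as the start of the run of H3K27me3 peaks, with gaps of at most 5 kb, that reaches HOXA4 or HOXB4. In HOXA the run extended past HOXA2 in both hESC, both hDE and the hAFE libraries. In hPFE it lay at 27115583 and 27115470 on chromosome 7, which is 12.9 and 13.1 kb from HOXA4 and inside the annotated body of HOXA3. Both hPFE libraries placed it within 113 bp of each other. In HOXB it lay 56.0 and 60.5 kb below the lower end of HOXB4 in hESC, 57.7 and 55.4 kb in hDE and 36 kb in hAFE. The run was thus already shorter in the single hAFE library and no longer held HOXB1. HOXB1 still had 39.9% of its bases under H3K27me3 there, beyond a gap of more than 5 kb. In hPFE the boundary lay 17.5 and 21.6 kb below the lower end of HOXB4, also inside HOXB3, and the hPFE libraries differed by 4153 bp.

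In 3 of 4 pairs of a cluster and a library, H3K27ac in hPFE ended within 2 kb of this boundary, and in HOXA replicate 2 it ended further away. The last H3K27ac peak before HOXA4 ended 12.8 kb from it in replicate 1 and 27 kb from it in replicate 2, and the last one before HOXB4 ended at 19.4 and 20.3 kb. In HOXA replicate 1 the H3K27ac end and the H3K27me3 start overlapped by 148 bp, and in replicate 2 they were 13956 bp apart. In HOXB they were 1986 bp apart in replicate 1 and overlapped by 1278 bp in replicate 2. The amount of H3K27ac differed between the libraries, with 90.2% and 6.9% of the bases of HOXA2 and 23.7% and 3.4% of the rest of HOXB under peaks in replicates 1 and 2, although the list of replicate 2 was the longer one (111237 against 81105 peaks). Within the members' intervals both hPFE libraries had 0.0%.

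**Figure D3:**
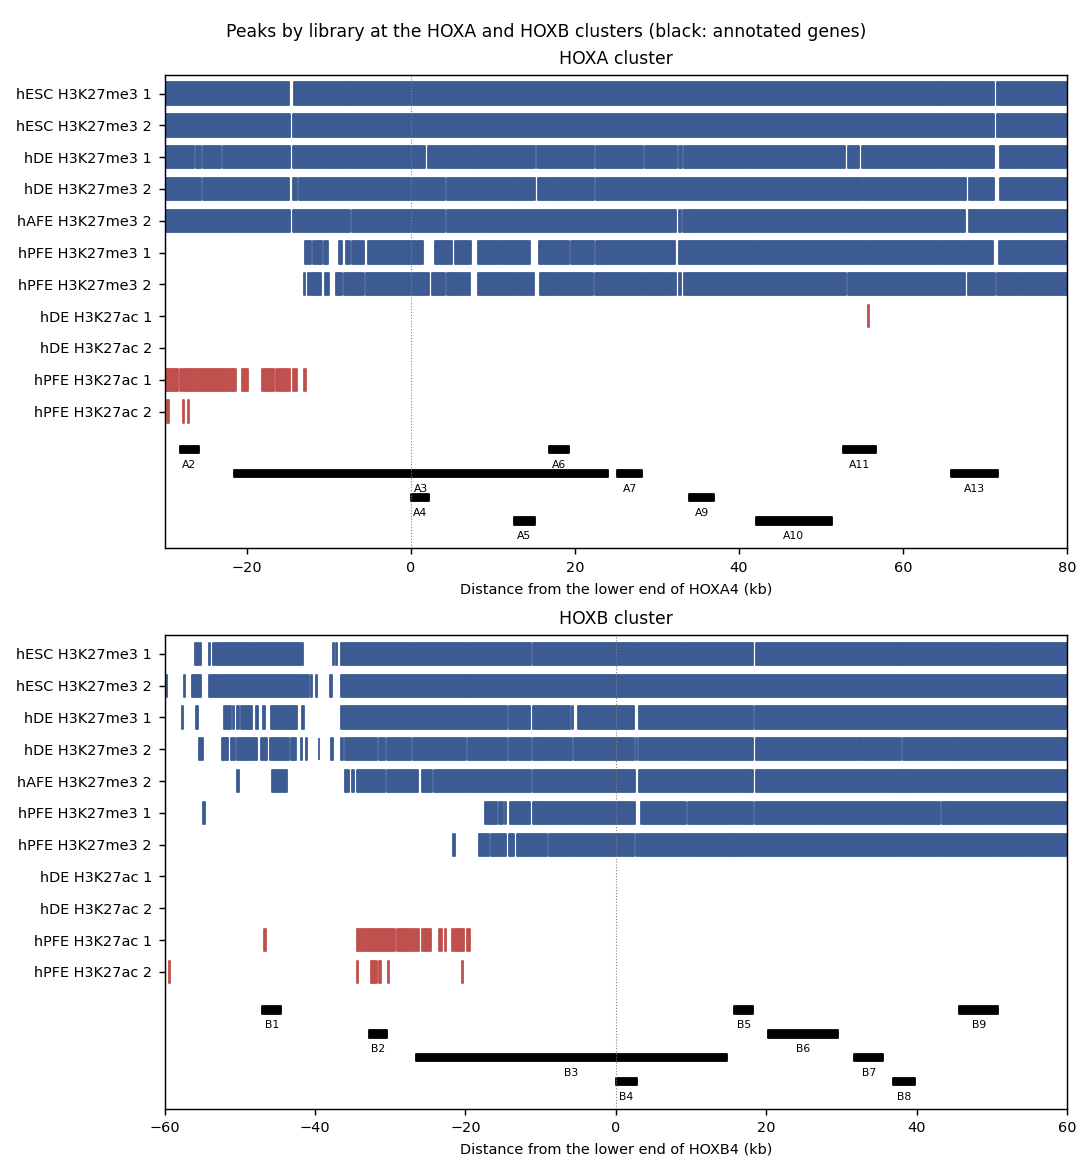
Peaks of H3K27me3 (blue) at each stage and of H3K27ac (red) in hDE and hPFE, by library, along the HOXA and HOXB clusters, in kb from the lower end of HOXA4 or HOXB4 (dotted line), with annotated genes in black. In hPFE the H3K27me3 run begins 12.9 and 13.1 kb before HOXA4 and 17.5 and 21.6 kb before HOXB4, and H3K27ac lies on the far side, apart from overlaps of 148 and 1278 bp.

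HOXA4 and HOXB4, the first members beyond the boundary, and HOXA5, the next member after HOXA4, had the lowest mean H3K27me3 coverage of the members in hPFE. HOXA4 (chr7:27128525-27130757), which patterns the neck and upper trunk, had 91.8% and 94.0% of its bases under H3K27me3 in hESC, 86.3% and 90.9% in hDE, 100.0% in hAFE and 64.9% and 82.8% in hPFE. The hPFE libraries were the lowest, and the replicates differed by more than the other stages did. The difference between hDE and hPFE was -14.7 percentage points (SE 5.9, limma over 1780 genes, Benjamini-Hochberg adjusted p = 0.169), and that between hESC and hPFE was -19 (SE 5.9, limma adjusted p = 0.0566), so neither passed the threshold of 0.05. The promoter window of HOXA4, the 250 bases shown above with the 50 bases after the start (300 bases, used for all promoter values), was covered to 55.3% and 53.3% in hESC, 37.7% and 60.7% in hDE, 100.0% in hAFE and 0.0% and 16.0% in hPFE.

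HOXA5 (chr7:27141052-27143681), a regulator of lung and airway development, had 95.8% and 97.6% in hESC, 94.3% and 90.6% in hDE, 100.0% in hAFE and 76.6% and 82.0% in hPFE. No other library overlapped those of hPFE. Its coverage fell from hESC to hPFE by 17.4 points (SE 2.9, limma adjusted p = 0.00726), from hAFE by 20.7 (SE 3.5, limma adjusted p = 0.0407) and from hDE by 13.1 (SE 2.9, limma adjusted p = 0.0357). In every H3K27me3 contrast with hAFE the single hAFE library is assumed to vary like those of the other stages, so its own spread was not measured. The latter calls depend on single libraries. From hDE the limma adjusted p was 0.0541 to 0.191 without any 1 of the hESC, hDE or hPFE libraries, and from hAFE it was 0.0551 to 0.156. With the replicate number as a block the fall from hAFE also lost its call (limma adjusted p = 0.0769), while that from hESC lost it only without hESC replicate 2 (limma adjusted p = 0.0557). HOXB4 (chr17:48575507-48578350), a group 4 factor known from blood stem cells, had 93.6% and 100.0% in hESC, 84.4% and 87.5% in hDE, 87.0% in hAFE and 78.6% and 82.7% in hPFE. It fell from hESC to hPFE by 16.2 points (SE 3.3, limma adjusted p = 0.0158), a call that ended without hESC replicate 2 (limma adjusted p = 0.0858) or hPFE replicate 1 (limma adjusted p = 0.0904).

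Further into the clusters hPFE coverage was high again at several members. HOXA6 had 96.0% and 97.1%, HOXA7 100.0% and 97.9%, HOXB6 98.4% and 100.0% and HOXB7 100.0% and 98.0%. HOXC4, a group 4 gene in the cluster without groups 1 to 3, had 92.1% and 92.8%, and HOXD4, next to the still covered HOXD3, had 84.8% and 93.3%. In hPFE replicate 1 HOXB5 had 83.1%, HOXC9 82.8% and HOXD8 80.7%, beside 78.6% for HOXB4. Lower values were thus not confined to the genes at the boundary in that library. In replicate 2 the lowest members of HOXC and HOXD had 88.9% and 93.3%. HOXD4 and HOXC9 were at 100.0% in both hESC libraries and fell to hPFE by 10.9 points (SE 3.2, limma adjusted p = 0.0456) and 12.4 points (SE 3.6, limma adjusted p = 0.0451). Without 1 library their limma adjusted p ranged from 0.0158 to 0.175 and from 0.0213 to 0.176, and both calls held only without hAFE replicate 2 or hPFE replicate 2. From hESC to hPFE 4 of 31 members were thus lower (background 25.8% of 1780 genes tested) and 0 higher (background 6.4%, and 0 members at an unadjusted limma p under 0.05). The median difference over the members was -3.6 points, and -4.5 over all genes tested. With medians of 98.1% and 100.0% in the hESC libraries, the members had little room to rise from hESC. Without hESC replicate 2 none of the members was called lower, without hPFE replicate 1 there was 1, without hESC replicate 1 or either hDE library there were 2, and without hPFE replicate 2 there were 6.

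Between hDE and hPFE 1 of 31 members, HOXA5, was lower (background 6.8%) and 1, HOXD13, was higher (background 7.13%), and the median difference over the members was 1.3 points (-0.2 over all genes tested). From hAFE to hPFE HOXA5 was the 1 member lower (background 2.64%) and 0 were higher by limma (background 0.674%, 0 at an unadjusted p under 0.05). HOXA2, HOXA3, HOXB1, HOXB2 and HOXB3 of groups 1 to 3 were lower in both contrasts. The difference between these genes and the members was not tested.

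At the other end of the clusters, HOXD13 and HOXA11 differed in hDE. This was not shared by all clusters. HOXB13 had 92.8% and 95.6% of its bases under H3K27me3 in hDE, and HOXC13 had at least 91.9% in every library. HOXD13 (chr2:176087487-176095944), the most 5' gene of HOXD and a regulator of limb and hindgut development, had 95.6% and 98.9% of its bases under H3K27me3 in hESC, 71.6% and 73.4% in hDE, 98.7% in hAFE and 93.7% and 96.4% in hPFE. Both hDE libraries lay below all others. Its coverage fell from hESC to hDE by 24.8 points (SE 2.5, limma adjusted p = 0.00326), rose to the single hAFE library by 26.2 (SE 3.1, limma adjusted p = 0.0127) and was 22.6 higher in hPFE than in hDE (SE 2.5, limma adjusted p = 0.00456). Without hDE replicate 1 the limma adjusted p of these contrasts was 0.064, 0.141 and 0.0607. Without hDE replicate 2 it was 0.0479, 0.114 and 0.0548, so the first call was kept and the others ended. Leaving out either hESC or either hPFE library kept all 3 calls, and without the hAFE library the first and the last were kept and the contrast with hAFE has no value.

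Part of the lower coverage in hDE was 1 long gap inside the annotated gene, and shorter gaps made up the rest. The longest stretch of HOXD13 without H3K27me3 was 1230 bp in hDE replicate 1 (chr2:176088084-176089313) and 1188 bp in replicate 2 (chr2:176088222-176089409), against 115 to 313 bp in the other libraries. H3K27ac appeared in the same place. In hDE replicate 1 a peak of 283 bp (chr2:176088806-176089088, the authors' fold enrichment 2.42) lay in the gap, and another of 210 bp (fold 2.73) lay 754 bp outside the gene. In replicate 2 peaks of 371 bp (fold 2.71) and 177 bp (chr2:176088750-176088926, fold 4.7) were found. The 2 peaks with coordinates overlapped, and 0.0% of either lay under H3K27me3 in hDE, while 35.7% to 100.0% lay under H3K4me2. The peaks of 210 and 371 bp, which lie within 1 kb of the gene's lower end and so make HOXD13 count as marked, did not overlap each other. Of the first, 0.0% and 89.5% lay under H3K27me3 in hDE replicates 1 and 2, and of the second 15.6% and 52.8%. All of these sites are within the annotated gene or just below it but upstream of the promoter sequence shown above, and the promoter window of 300 bases had no H3K27ac in any library.

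**Figure D4:**
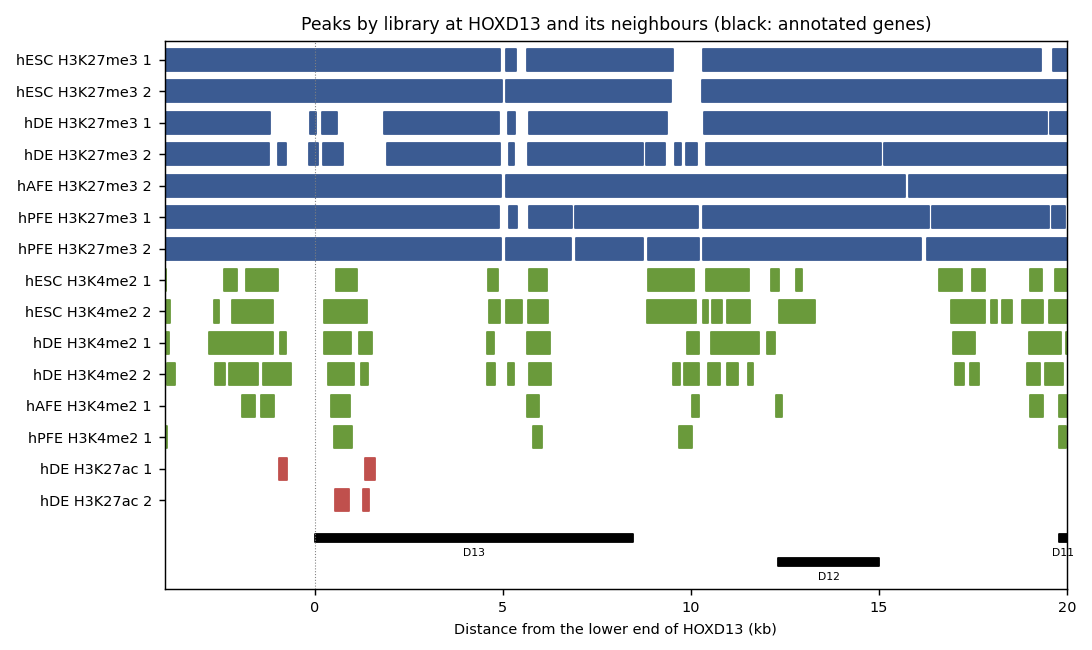
Peaks of H3K27me3 (blue), H3K4me2 (green) and hDE H3K27ac (red) by library at HOXD13, HOXD12 and the start of HOXD11, in kb from the lower end of HOXD13. Both hDE libraries show a gap of 1230 and 1188 bp in H3K27me3 inside HOXD13, with H3K4me2 and small H3K27ac peaks in it.

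HOXA11 (chr7:27181157-27185232), a group 11 gene of limb, kidney and uterus, differed in hDE in H3K27me3 and in H3K4me2. Its H3K27me3 coverage was 100.0% in both hESC libraries, 88.1% and 87.4% in hDE, 97.8% in hAFE and 97.9% and 94.4% in hPFE. It fell from hESC to hDE by 12.2 points (SE 2.2, limma adjusted p = 0.017). This call ended without any 1 of the hESC and hDE libraries (limma adjusted p from 0.0566 to 0.106). Its H3K4me2 coverage was 14.5% and 24.8% in hESC, 51.3% and 38.9% in hDE, 2.7% in hAFE and 8.4% in hPFE, so that hDE stood highest. From hDE to the single hPFE library it differed by -36.7 points, which did not pass the limma threshold of 0.05. It rose from hESC to hDE by 25.5 points (SE 5.6, limma over 7492 genes, adjusted p = 0.0382), and the call ended without hESC replicate 1 (limma adjusted p = 0.0537) or hDE replicate 1 or 2 (limma adjusted p = 0.194 and 0.136). The HOXA11 promoter shown above lay wholly under H3K27me3 in all 7 libraries. H3K4me2 covered 100.0% and 21.7% of it in hDE, 0.0% in both hESC libraries and in hAFE, and 33.3% in hPFE. The contrast with hESC depended on the window. Within 500 bases of the start H3K4me2 covered 13.7% and 40.7% in hESC, 85.3% and 62.2% in hDE, 0.0% in hAFE and 31.4% in hPFE.

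In hDE 2 of 31 members, HOXA11 and HOXD13, were thus lower than in hESC for H3K27me3 (background 14.4%) and 0 were higher by limma (background 1.69%, 0 at an unadjusted p under 0.05). The median difference was -5.7 points over the members and -4.2 over all genes tested. As coverage in hESC was nearly complete, the members had little room to rise from it. The 2 calls became 0 without hDE replicate 1, 1 without hDE replicate 2 or either hESC library, and 4 without either hPFE library. From hDE to hAFE HOXD13 was the 1 member higher (background 2.92%), and 0 were lower by limma (background 1.18%, 0 at an unadjusted p under 0.05). HOXA13, a gene of the hindgut and distal limb with the highest CG count, varied between replicates as well as between stages. Its H3K27me3 coverage was 93.1% and 95.3% in hESC, 88.1% and 79.5% in hDE, 90.5% in hAFE and 89.1% and 90% in hPFE, and its promoter had 5.3% and 16.7% under H3K27me3 in hDE, 71.0% and 100.0% in hESC, 100.0% in hAFE and 24.7% and 100.0% in hPFE. HOXA11 differed between hDE and hPFE by 8.4 points (SE 2.2, limma adjusted p = 0.0557) and HOXA13 by 5.8 (SE 3.4, limma adjusted p = 0.326).

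H3K27ac was close to absent from the members. None of 31 was marked in hESC, hAFE or hPFE and 1, HOXD13, was marked in hDE, where the rule marked 42.9%, 34.2%, 50.2% and 54% of all protein-coding genes, in that order. HOXD13 thus gained the mark from hESC to hDE (background 6.72%) and lost it to hAFE (background 6.77%) and to hPFE (background 3.17%). No member lost it from hESC to hDE (background 1.18%), gained it from hDE to hAFE (0.459%) or changed from hAFE to hPFE (3.81% of all genes gained it and 0.185% lost it). None gained it from hDE to hPFE (1.92%) or changed from hESC to hPFE (5.25% and 1.63%). As no member was marked in hESC or hAFE, none could lose the mark from these stages. Without hDE replicate 2 the rule marked 2 members in hDE, HOXA11 being the other. HOXA11 had a peak in hDE replicate 1 only (166 bp, the authors' fold enrichment 2.96), which lay wholly under H3K27me3 and H3K4me2 in both hDE libraries of each. A further peak of hDE replicate 1 stood 8023 bp from HOXD8. When peaks needed a −log10 p of at least 5, or with lists cut to equal length, no member was marked in hDE. The covered share was 4.7% and 5.2% for HOXD13 in hDE and at most 2.7% for any other member, so none of the 31 reached the mean of 5% needed for the limma test of 3965 genes. HOXA2 and HOXB2, of group 2, were marked in hPFE.

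H3K4me2 lay on most members as short peaks. It marked 27 of 31 in hESC (background 72.3%), 26 in hDE (68%), 17 in hAFE (70.2%) and 22 in hPFE (70.1%), where the last 2 stages rest on 1 library each. Peaks were at the ends of 13 members in all 6 libraries, namely HOXA4, HOXA5, HOXA7, HOXB4, HOXB5, HOXB7, HOXB9, HOXB13, HOXC4, HOXD8, HOXD9, HOXD11 and HOXD13, and HOXC8 and HOXC12 had one in 2 libraries only. The median covered share was 11.6% and 17.4% in hESC, 12.4% and 13.1% in hDE, 2.6% in hAFE and 5.3% in hPFE, while the median over all genes was 2.6% to 4.1%. Over the 4 intervals together 8.6% and 12.9%, 9.1% and 9.0%, 2.9%, and 4.9% of bases were under H3K4me2. By cluster the hAFE library had 6.4% in HOXA, 1.8% in HOXB, 1.0% in HOXC and 4.9% in HOXD, and the hPFE library 8.4%, 5.2%, 2.3% and 4.7%, each below every hESC and hDE library. For HOXB this rests on the interval with the long stretch before HOXB13. From HOXB4 to HOXB9 the share was 7.3% and 11.7% in hESC, 13.6% and 12.1% in hDE, 3.0% in hAFE and 12.5% in hPFE, so that hPFE lay among the earlier libraries. The hAFE and hPFE lists as a whole covered 2.19% and 2.27% of gene bases, close to the 2.2% and 2.32% of hDE.

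From hESC to hDE 1 member gained H3K4me2 (background 0.449%) and none lost it (background 2.04%). From hESC to hPFE 1 gained it (background 1.56%) and 7 lost it (background 4.47%). From hDE to hAFE 9 members lost it (background 2.2%) and none gained it (background 2.16%). From hAFE to hPFE 8 gained it (background 3.49%) and 3 lost it (background 3.58%). From hDE to hPFE 7 lost it (background 2.32%) and 1 gained it (background 2.24%). With a 2.5 kb window the 9, 8 and 7 became 5, 4 and 4. In the limma fit of covered bases 0 of 29 members tested were lower from hDE to hAFE (background 0%) or hDE to hPFE (background 0.0667%), with 17 and 13 at an unadjusted p under 0.05 in that direction. None was higher in these contrasts (background 0% and 0.133%, 0 and 0 at an unadjusted p under 0.05) or changed from hAFE to hPFE (background 0.0267% higher and 0% lower, 6 and 0 at an unadjusted p under 0.05). The median differences over the members were -9.3 and -6.5 points, and -0.5 and 0.1 over all genes tested. The single library of hAFE or hPFE is assumed in this fit to vary like those of the other stages. Without hESC replicate 1 and hESC replicate 2 the members called lower from hDE to hPFE were 3 and 4, and without hESC replicate 2 those called lower from hDE to hAFE were 2.

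HOXB8, of the trunk and haematopoietic system, was higher in hDE and hPFE than in hESC, with 0.0% and 3.7% in hESC, 12.2% and 12.8% in hDE, 0.7% in hAFE and 11.3% in hPFE. It rose from hESC to hDE by 10.6 points (SE 1.4, limma adjusted p = 0.0156) and to hPFE by 9.5 (SE 1.8, limma adjusted p = 0.0342). These calls ended without hDE replicate 1 (limma adjusted p = 0.15 and 0.107) and without hDE replicate 2 (limma adjusted p = 0.136 and 0.114). From hESC to hDE 2 of 29 members were higher, HOXA11 and HOXB8 (background 1.08%), and 0 were lower by limma (background 16.8%, 2 at an unadjusted p under 0.05). Without hESC replicate 1 there was 1 higher and 6 were lower, without hESC replicate 2 there were 6 higher, and without either hDE library none was higher. HOXC11, a posterior gene of the limb and spinal cord, had 18.2% and 17.1% in hESC, 12.1% and 6.4% in hDE, 0.0% in hAFE and 2.8% in hPFE. It fell from hESC to hPFE by 14.9 points (SE 2.7, limma adjusted p = 0.0317), not called without hDE replicate 1 or 2 (limma adjusted p = 0.0772 and 0.0855). There it was the 1 member lower (background 9.42%) and HOXB8 the 1 higher (background 0.374%), while without hESC replicate 1 as many as 14 members were lower. Large differences that did not pass were those of HOXD12 (from 12.9% and 26% in hESC to 0.0% in hPFE, limma adjusted p = 0.139), HOXD13 (18.3% and 28.9% to 6.9%, adjusted p = 0.0897), HOXB9 (11.8% and 23.9% to 2.7%, adjusted p = 0.133) and HOXB13 (17.1% and 21.1% to 4.6%, adjusted p = 0.0522). HOXD8 and HOXD11 went from 34.0% and 26.5% and from 15.2% and 16.3% in hDE to 9.3% and 1.7% in hPFE (limma adjusted p = 0.271 and 0.217).

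Position in the cluster divided the hPFE library. Of the 19 members of groups 4 to 9, 18 had H3K4me2 at their ends in hPFE, all but HOXD4, and of the 12 members of groups 10 to 13 only HOXA11, HOXB13, HOXD11 and HOXD13 did, which makes 4. In hESC the counts were 17 and 17 of 19 and 11 and 12 of 12, in hDE 16 and 18 and then 12 and 10, and in hAFE 11 and 6. This division was chosen after the values were seen and was not tested, and hPFE has 1 library. Counting only peaks with a −log10 p of at least 5, the hPFE counts were 11 of 19 and 2 of 12. By this threshold groups 4 to 9 had 11 and 17 in hESC, 15 and 17 in hDE and 7 in hAFE. Groups 10 to 13 then had 9 and 12 in hESC, 11 and 8 in hDE and 3 in hAFE. The hPFE count of groups 4 to 9 thus equalled that of hESC replicate 1, and that of groups 10 to 13 was close to hAFE.

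**Figure D5:**
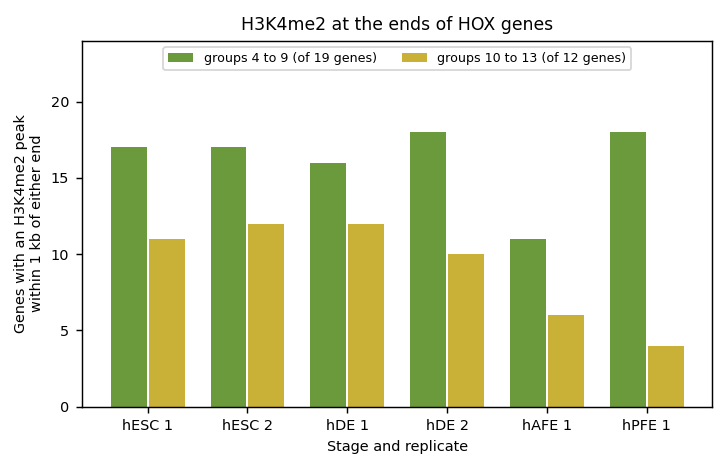
Number of members with an H3K4me2 peak within 1 kb of either gene end, by library, for the 19 genes of groups 4 to 9 and the 12 genes of groups 10 to 13. In hPFE 18 and 4 genes have one, against 16 to 18 and 10 to 12 in the hESC and hDE libraries.

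The H3K4me2 of the members lay mostly inside the H3K27me3 blocks. In hESC 94.8% to 96.4% of the H3K4me2 bases in the 4 intervals were also under H3K27me3 of the same stage, in hDE 88.1% to 92.4%, in hAFE 92.3% and in hPFE 83.9% and 93.4%, over each pair of libraries. For the whole H3K4me2 lists the shares were 12.9% to 18.3%, 7.1% to 9.5%, 7.0%, and 4.9% and 6.5%. H3K27me3 covered 80.7% to 85.2% of all bases of the 4 intervals, so high shares there were largely set by that coverage. Whether H3K4me2 bases overlapped H3K27me3 more or less than other bases of the intervals was not tested. As all members were marked by H3K27me3, 27, 26, 17 and 22 of 31 carried both marks at their ends, beside 18.5%, 11.6%, 13.2% and 10.3% of all protein-coding genes. The marks were measured in separate libraries of many cells, so whether they stand on the same molecules was not measured.

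Genes that act upstream of HOX clusters or beside HOX proteins were read by the same rule, and their difference from the members was not tested. The caudal factors CDX1, CDX2 and CDX4, which activate posterior HOX genes in the embryo, were marked by H3K27me3 in hESC, hDE and hAFE, and 2 of 3 were in hPFE, where CDX4 was marked in 1 library. CDX2 was covered by H3K27me3 to 94.4% to 98.9% as means of a stage. None of the 3 was marked by H3K27ac at any stage, and the only covered bases were 0.4% of CDX1 in hPFE. Of 9 HOX cofactors (PBX, MEIS and PKNOX genes, whose proteins bind DNA together with HOX proteins), 4, 4, 2 and 0 were marked by H3K27me3 in hESC, hDE, hAFE and hPFE, and 5, 7, 7 and 8 by H3K27ac. MEIS1 and MEIS2 gained H3K27ac from hESC to hDE and MEIS3 from hAFE to hPFE. Of 8 genes for Polycomb subunits and opposing enzymes (EZH1, EZH2, EED, SUZ12, JARID2, KDM6A, KDM6B and KMT2A), 8, 8, 7 and 8 carried H3K27ac. EZH1 and KDM6B were marked by H3K27me3 in hESC and EZH1 in hDE. From hESC to hDE KDM6B went from 35.5% to 1.2% under H3K27me3 and from 4.0% to 38.8% under H3K27ac, as means of a stage. Of all protein-coding genes, the rule marked 42.9%, 54%, 34.2% and 50.2% for H3K27ac and 19.2%, 13.4%, 15.5% and 12.7% for H3K27me3.

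The microRNA hairpins followed their clusters. Apart from MIR615, all lay wholly under the mark in every H3K27me3 library. MIR615, which lies inside the annotated HOXC4 and HOXC5 genes, was covered to 100.0% in hESC and hPFE, to 22.9% and 74.0% in hDE and to 56.2% in hAFE. None of the 7 had any base under H3K27ac or H3K4me2 in any library.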

How the data were processed

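Histone ChIP-seq of 25 samples of H1 cells and 3 derived stages was used as 21 peak lists, and the 4 inputs enter only as the authors' controls. As the names of the deposited files give it, the authors ran the peak calling on single libraries, with the stage's input as control, at a p-value threshold of 0.01, capped at 500 K peaks. The submitters' processing notes name hg38 as the build. Which aligner and caller were used is not given in the sources used here. The deposited score, the deposited fold enrichment (a ratio) and both deposited columns of −log10 values (p and q) belong to each list and were not compared between lists. Peaks on the autosomes, X and Y were merged per library and set against 20037 protein-coding genes of GRCh38.p14. The percent of bases covered was tested with limma 3.58.1 (R 4.3.3) on genes with a mean of 5% or more, with Benjamini-Hochberg adjustment within each of 5 contrasts at 0.05, two-sided. The fit was also run on simulated data, with shifts planted in genes of intermediate mean coverage. Most members lay outside that range, so the simulation does not show how the fit performs on them. All 31 members were named. Given in full were those unmarked or mixed for H3K27me3, those marked or mixed for H3K27ac, and the 5 with the largest differences to hPFE per mark. The rule for the members uses names only, but it and the lists were chosen with earlier results of these data known. Whether replicates come from separate cultures is not in the labels, so p-values may measure technical spread only. Same-numbered H3K27me3 libraries deviated together (r = 0.20 to 0.23 over 3 pairs of stages), which coincides with the word millipore, so the fit with the replicate number as a block was also run. Alternatives were another peak threshold, equal list lengths, other windows and overlaps, an arcsine scale, no filter and each library left out. A neighbouring item is not reported here.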

Additional observations from a re-analysis of the deposited data

How the results depend on the processing

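H3K27me3 counts of marked, gained and lost members kept their values within 1.5 times under every setting run. Keeping only peaks with a −log10 p of at least 5, H3K27ac marked 0 members in hDE and 0 were gained from hESC to hDE or lost from hDE to hAFE or hPFE. H3K4me2 then marked 10 in hAFE and 13 in hPFE, with 0 gained from hESC to hDE and from hDE to hPFE, and with 5 lost from hAFE to hPFE, 12 from hDE to hPFE and 11 from hESC to hPFE. The share of bases in the 4 intervals was 0.0426% for H3K27ac in hDE (0.166% as deposited), 79.3%, 80.7% and 79.4% for H3K27me3 in hDE, hAFE and hPFE (80.9%, 81.8% and 81.5%), and 6.87%, 1.53% and 2.69% for H3K4me2 (9.07%, 2.91% and 4.86%). By limma 2 members were lower for H3K27me3 from hAFE and from hDE to hPFE, and for H3K4me2 0 were higher from hESC to hDE or hPFE and 2 lower from hESC to hPFE. With equal list lengths H3K27ac marked 0 members in hDE, with 0 gained from hESC and 0 lost to hAFE or hPFE, and covered 0% of the intervals. H3K27me3 then covered 80% in hDE and in hPFE and H3K4me2 8.79%, 2.87% and 4.73%, 2 members gained H3K4me2 from hESC to hPFE, 2 were lower for H3K27me3 from hAFE and from hDE to hPFE, and 0 were higher for H3K4me2 from hESC to hPFE. With a 2.5 kb window H3K4me2 was gained by 0 members from hESC to hDE and to hPFE and by 4 from hAFE to hPFE, and lost by 5 from hDE to hAFE, 4 from hDE to hPFE and 3 from hESC to hPFE. With a 200 bp overlap it was lost by 1 from hESC to hDE and 11 from hESC to hPFE. On the arcsine scale 6, 0 and 8 members were lower for H3K27me3 (hESC to hDE, hDE to hPFE, hESC to hPFE), 1 and 6 lower for H3K4me2 (hDE to hAFE, hESC to hPFE) and 0 higher (hESC to hPFE). With no filter on low genes 1 member was higher for H3K27ac from hESC to hDE and 1 lower from hDE to hAFE and to hPFE, 1, 0, 0 and 1 were lower for H3K27me3 (hESC to hDE, hAFE to hPFE, hDE to hPFE, hESC to hPFE), and 0 were higher (hESC to hDE and hPFE) or lower (hESC to hPFE) for H3K4me2.

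With the replicate number as a block, 0 members were lower for H3K27me3 from hAFE to hPFE and 2 higher from hDE to hPFE, and 3 and 2 lower for H3K4me2 from hESC to hDE and hPFE. No other count of members moved by more than 1.5 times under the block. The same-numbered libraries correlated at -0.03 to 0.32 for H3K27ac and at 0.18 for H3K4me2, with 2 numbers per stage.

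Leaving out 1 library gave 1 to 2 members for H3K27ac marked in hDE, gained from hESC and lost to hAFE or hPFE. For H3K27me3 by limma it gave 0 to 1 higher from hDE to hAFE and hPFE, 0 to 1 lower from hAFE and from hDE to hPFE, 0 to 4 lower from hESC to hDE and 0 to 6 from hESC to hPFE. For H3K4me2 it gave 1 to 3 gained from hDE to hPFE, 1 to 2 gained from hESC to hDE and to hPFE and 0 to 2 lost from hESC to hDE. By limma it gave 0 to 6 higher from hESC to hDE and 0 to 2 to hPFE, and 0 to 2 lower from hDE to hAFE, 0 to 4 from hDE to hPFE, 0 to 6 from hESC to hDE and 0 to 14 from hESC to hPFE. The cause of these changes was not tested. Of 158 settings for the 14 named calls, 97 kept the call, 61 ended it and 0 turned its direction. Depth is unknown, and peak presence cannot show a change in signal under a peak.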

Other observations

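In the members' intervals, or close beyond their upper ends, lie 18 annotated long non-coding RNA genes. None of them had any base under H3K27ac in the 8 libraries. H3K27me3 covered 14 of them to 80% or more in all 7 libraries. HOTAIR, an RNA of the HOXC cluster described in gene silencing, had 96.9% to 100.0%. HOTTIP, an RNA from the 5' end of HOXA that lies mostly beyond the HOXA interval, had 97.3% to 100.0%. HOXA11-AS, which overlaps HOXA11, was at 100.0% in each H3K27me3 library, and its H3K4me2 ranged from 0.0% to 44.9% over 6 libraries. The least covered were LINC02086, between HOXB9 and HOXB13, with 14.4% to 29.2%, HOXC-AS3 with 56.9% to 94.5%, HOXC-AS1 with 61.5% to 100.0% and LOC100129455 in HOXD with 66.4% to 100.0%. The lists give no strand, so peaks of an antisense gene and of its HOX partner cannot be told apart.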
